A study of Drosophila melanogaster with 2 samples.

Results

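Open chromatin was described at the genes that encode subunits of the vacuolar ATPase (V-ATPase) in adult mushroom body (MB) neurons of Drosophila melanogaster. Members were the protein-coding genes whose symbol in the RefSeq release 6 gene table starts with Vha and continues with a digit, A or P. This gave 28 of the 13922 protein-coding genes on the 6 chromosome arms that the peak lists cover. Accessibility had been measured by ATAC-seq, in which the Tn5 transposase cuts exposed DNA, in 1 condition with 2 biological replicates. Both replicates came from naive control flies, each a pool of 50 to 60 flies, and the study's methods give males. The flies carried UAS-unc84::2xGFP, tubGal80(ts), an mCherry RNAi transgene at attP2 that targets no fly gene, and the driver R14H06-Gal4, in a w* background. The driver uses an enhancer of rut, and the GFP-tagged nuclei were captured with antibody-coated beads, so that the nuclei are those in which this enhancer was active and any others carried along.

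The V-ATPase is a rotary proton pump. Its peripheral V1 sector hydrolyses ATP, and its membrane sector V0 carries protons across the membrane of lysosomes, endosomes and synaptic vesicles, where the gradient drives the loading of neurotransmitters. In Drosophila several subunits are encoded by more than one gene, and some of the additional copies are known for expression in testis or in acid-secreting epithelia. An open gene end is a place where transcription may start, but accessibility is no measure of mRNA.

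A peak was assigned to a gene when it lay within 500 bp of its start or its end. The gene table gives no strand, so that either end can be the transcription start. The value of a peak is the fold enrichment that the authors obtained from MACS2, a ratio of the signal at the summit to the local background. Replicate 1 had 17942 peaks and replicate 2 had 15248. The lists hold no reads, so that depth per peak is unknown. With 1 condition there were no groups of flies to test, and the spread between replicates is given as both values. Of the genes fixed as markers, 10 of 10 for Kenyon cells, the neurons of the MB, had a peak near an end in both replicates. The same held for 2 of 5 glial, 2 of 6 photoreceptor and 2 of 6 testis genes. In both replicates, a peak with its summit nearest to the gene stood at 10, 1, 2 and 0 of these genes, in that order. Over all protein-coding genes the shares were 65.4% with a peak and 42.5% with such a summit. One of the Kenyon cell genes is rut, whose enhancer the driver also carries. The part of other cell types in the results was not tested.

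Open chromatin was found at 21 of the 28 V-ATPase genes (75.0%) in both replicates, and at 65.4% of all protein-coding genes. The same number, 21, was found in replicate 1 and in replicate 2, against 68.0% and 65.6% of all protein-coding genes. No member was open in 1 replicate only. This was also uncommon over all protein-coding genes, of which 9461 were open in replicate 1, 9138 in replicate 2 and 9108 in both. All 12 subunit groups had at least 1 gene with a peak. The median of the highest fold enrichment was 4.16 in replicate 1 and 4.14 in replicate 2 over the 21 members, against 3.89 and 3.77 over the 9108 protein-coding genes with a peak. The peaks with these values were 1725.0 and 1667.0 bp wide at the median of the members, against 1367.0 and 1267.0 bp. A peak covered a gene end in both replicates at 17 members (60.7%), against 54.4% of all protein-coding genes. Both ends had a peak within 500 bp at 11 members (39.3%), against 21.3%. At 6 of these 11 the ends had separate peaks, and at the other 5 a single peak lay within 500 bp of both ends in at least 1 replicate. Among these 5, the peak of Vha16-4 stopped 193 and 340 bp short of 1 end, and that of VhaAC45RP 472 and 495 bp short. Among the 6, Vha68-1, Vha44, Vha100-1 and Vha16-5 had, in both replicates, a summit nearest to another gene at 1 or both ends. How often this held among all genes with both ends open was not counted.

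Many of these peaks lay beside another gene. The members were therefore divided by the peak summit. A total of 15 members (53.6%) had, in both replicates, a peak with its summit nearer to an end of the member than to an end of any other protein-coding gene, here called an own peak. The same held for 42.5% of all protein-coding genes. Another 6 members had a peak within 500 bp whose summit lay nearest to another gene in at least 1 replicate, and 7 had no peak within 500 bp. Own peaks were present at 8 of the 12 genes of V1, at 5 of the 14 genes of V0 and at both accessory genes. Each of the 4 subunits with a single gene had an own peak. Of the 8 groups with several genes, 3 had exactly 1 gene with an own peak, 4 had 2, and subunit D had none.

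**Figure D1:**
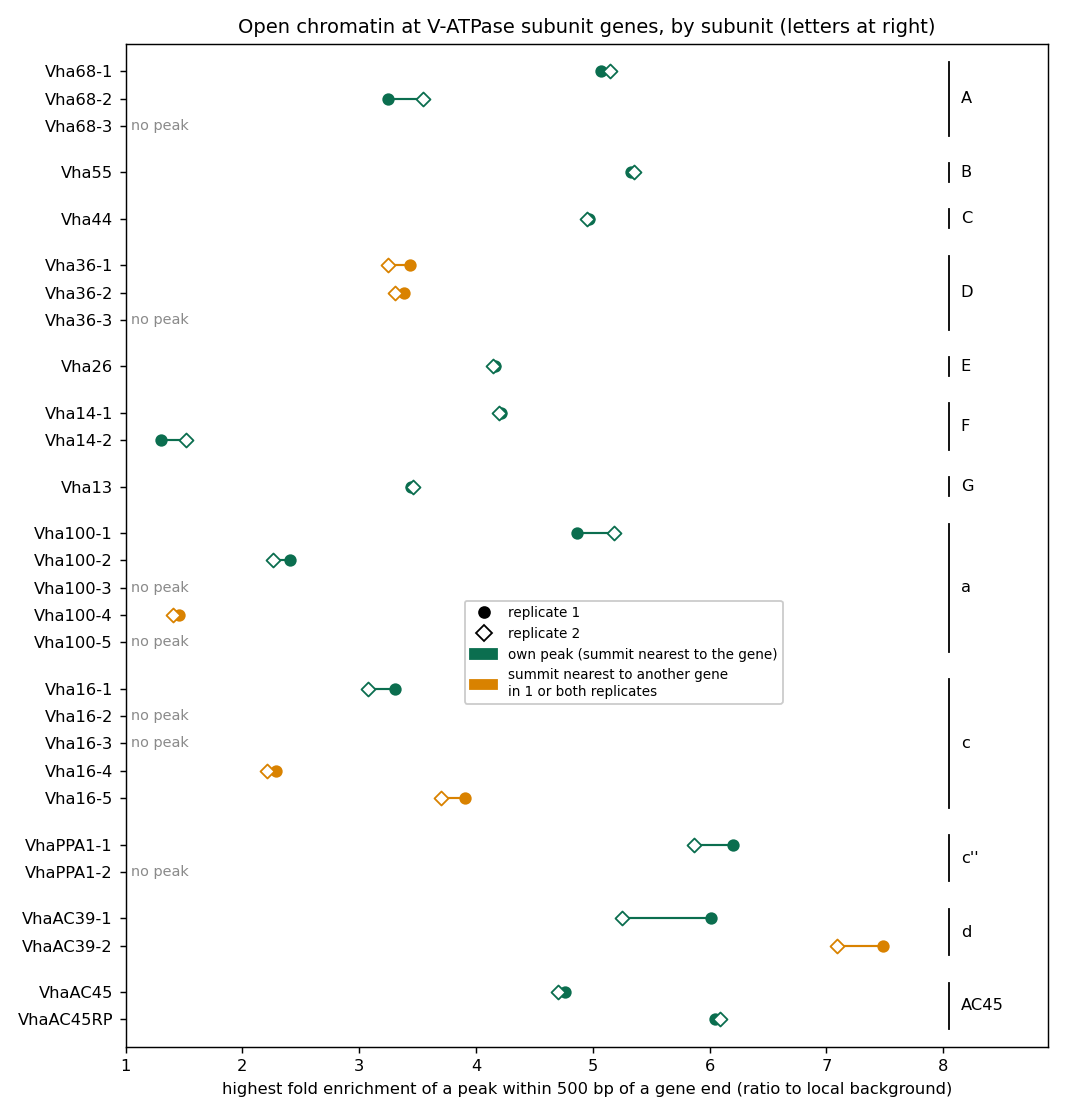
Highest fold enrichment (x axis, ratio to local background) of a peak within 500 bp of an end of each of the 28 V-ATPase genes, grouped by subunit, with filled circles for replicate 1 and open diamonds for replicate 2. The highest values stand at VhaAC39-2 (7.48 and 7.09), whose peak summit lies nearest to another gene, and 7 genes have no peak.

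Among the V1 genes of the head of the pump, 3 of 4 had an own peak. Subunits A and B alternate in the ring that binds and hydrolyses ATP. Vha55, the only gene of subunit B (3R from 12623762 to 12627829), was enriched 5.33-fold in replicate 1 and 5.35-fold in replicate 2, with summits 7 and 22 bp from its higher-coordinate end. A weaker peak beyond its other end, with 1.85, fell inside the window in replicate 1 only, at 480 bp. Vha68-1, a gene of subunit A (2L from 13000770 to 13004107), had 5.07 and 5.14, with summits 55 and 60 bp from its higher-coordinate end and 428 and 433 bp from mTor. Vha68-2 (2L from 12974322 to 12978607) had 3.24 and 3.55, with summits 219 and 258 bp from its lower-coordinate end. The values of Vha68-1 thus lay above those of Vha68-2 in both replicates, by more than the replicates of either differed. Vha68-1 also had a weaker peak across its other end (2.63 and 2.73), whose summits lay nearer to the neighbouring gene Yip1d1, at 33 and 27 bp. No peak lay within 500 bp of the remaining copy, Vha68-3 (2L from 12978786 to 12981293), although it starts only 178 bp beyond the end of Vha68-2. The nearest peak was 1087 bp away in replicate 1 and 1096 bp away in replicate 2, on the side away from Vha68-2.

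The genes of the peripheral stalks, which hold the head still, were each open at their own end. These are subunits E and G, together with subunit C, which joins the sectors and leaves when the pump is taken apart. Vha44 (subunit C, 2R from 16324813 to 16336637) had 4.97 in replicate 1 and 4.95 in replicate 2, with summits 17 and 14 bp from its higher-coordinate end. This end lies inside the span of Hmgs, with which Vha44 overlaps by 548 bp. A weaker peak (2.15 and 1.87) lay 326 and 416 bp outside its other end. The summits of that peak were 598 and 645 bp from CG4282 and 610 and 657 bp from Vha44. At Vha26 (subunit E, 3R from 5591763 to 5595356) the values were 4.16 and 4.14. Vha13 (subunit G, 3R from 19643018 to 19644386) had the lowest values of the 3, 3.44 and 3.46, in peaks of 2423 and 2409 bp that covered the whole gene. The order Vha44, Vha26, Vha13 was the same in both replicates, and the steps between these genes were larger than the difference between the replicates of any of them.

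The central stalk, which turns with ATP hydrolysis, consists of subunits D and F. At subunit F both copies had an own peak, at very different levels. Vha14-1 (2R from 15679426 to 15680084) had 4.21 in replicate 1 and 4.20 in replicate 2, in peaks of 1914 and 1981 bp. Vha14-2 (3R from 6122592 to 6124405) had 1.31 and 1.52, in peaks of 334 and 366 bp. The values of Vha14-2 stood at percentiles 0.439 and 3.35 of all protein-coding genes with a peak, and its -log10 q was only 4.75 and 5.98. The nearest end of another protein-coding gene was that of Obp83g, 12177 and 11882 bp from its summits. Thus Vha14-2 was open in both replicates by the rule, at a level near the bottom of the lists.

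Subunit D was the only group without an own peak in both replicates. At Vha36-1 (2R from 15541435 to 15542498) a peak of 2361 bp in replicate 1 and 2202 bp in replicate 2 covered the gene from end to end, with 3.44 and 3.25. Its summit lay 24 bp from the lower-coordinate end of Vha36-1 in replicate 1. In replicate 2 it lay at the other end of the gene, 58 bp from eIF2Bgamma, which encodes a subunit of a translation initiation factor complex, and 105 bp from Vha36-1. This peak is therefore shared between close genes and cannot be given to Vha36-1 alone. Vha36-2 (2R from 12257282 to 12258652) was reached only by the peak of Cam, the calmodulin gene, 340 and 275 bp beyond its end. The summits of that peak (3.38 and 3.31) lay 31 and 1 bp from the end of Cam. Vha36-3 (X from 2579091 to 2580560) had no peak within 500 bp, and the nearest were 1300 and 1317 bp away.

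**Figure D2:**
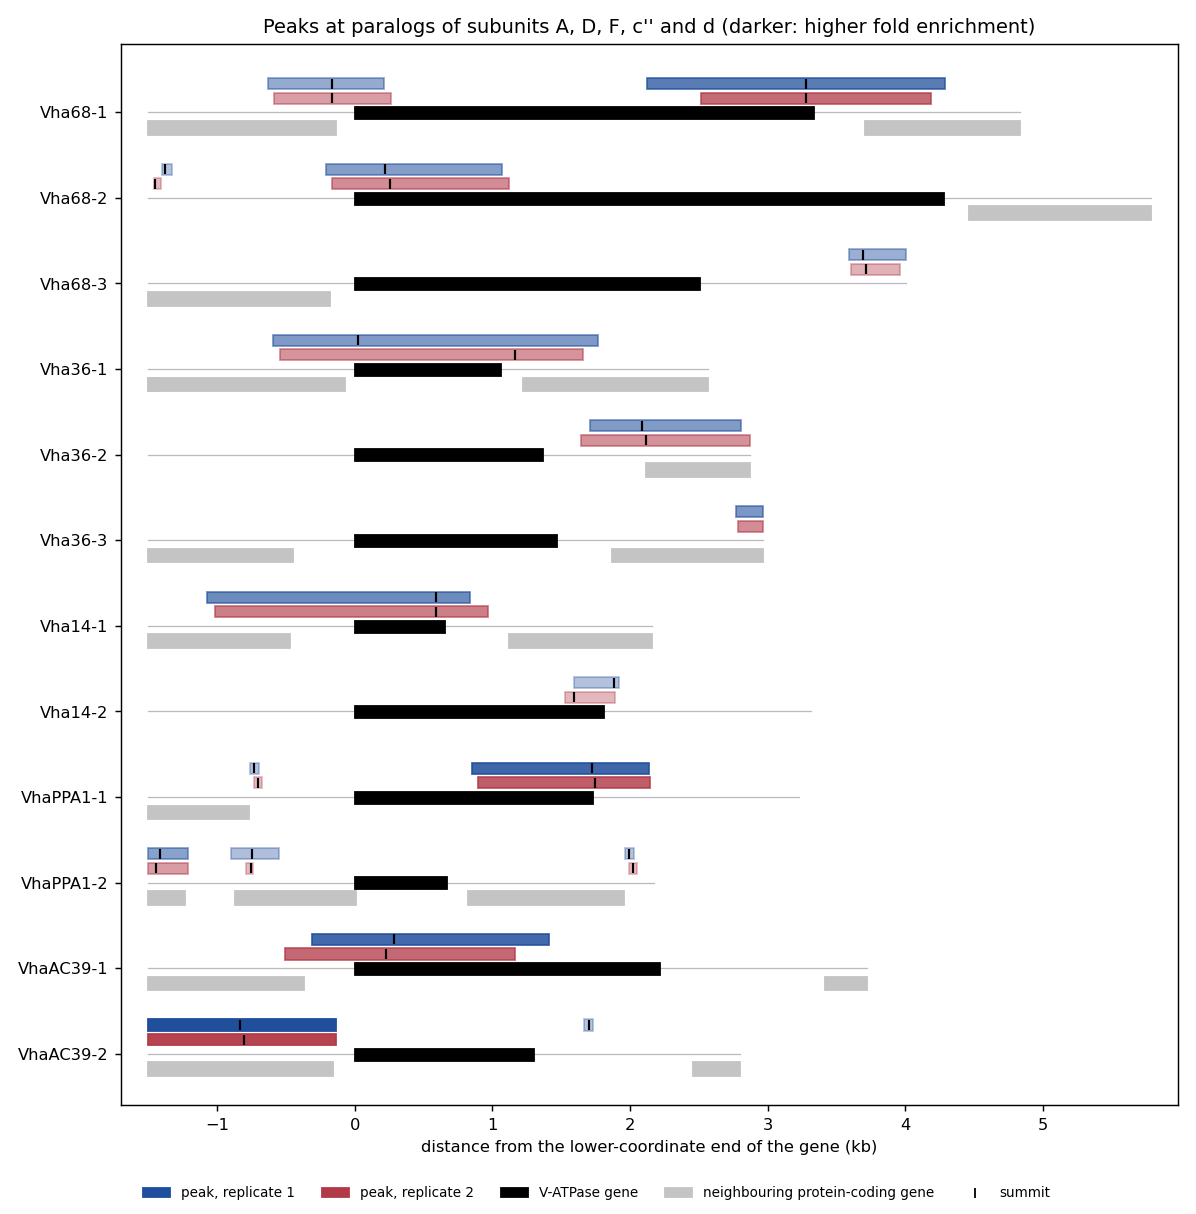
Peaks of replicate 1 (blue) and replicate 2 (red) at the paralogs of subunits A, D, F, c'' and d, against the distance in kb from the lower-coordinate end of each gene (black), with neighbouring protein-coding genes in grey (V-ATPase genes included), summits as ticks and darker colour for higher fold enrichment. The map is cut 1500 bp outside each gene and shows peaks over Vha68-1, Vha68-2, Vha36-1, Vha14-1, VhaPPA1-1 and VhaAC39-1, and the peaks beyond Vha36-2 and VhaAC39-2 over their neighbours.

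In V0, subunit a forms the path of protons to and from the rotating ring and sets where in the cell a pump acts. Of its 5 genes, Vha100-1, known in flies for its function at synapses, had the highest values. Vha100-1 (3R from 29131193 to 29137980) had 4.87 in replicate 1 and 5.18 in replicate 2, with summits 212 and 162 bp from its lower-coordinate end. A second peak lay across its other end, with 4.19 and 4.30, and its summits were 26 and 1 bp from an end of Alg13. Vha100-2 (3R from 18390323 to 18399169) had 2.41 and 2.26 at its higher-coordinate end, and the values of Vha100-1 lay above these in both replicates. This end lies inside the span of Vti1b, with which Vha100-2 overlaps by 2175 bp. The replicates differed in shape there. Replicate 1 had a peak of 3370 bp with its summit nearer to Vti1b, and replicate 2 had separate peaks over the same stretch. The outer one of these, 2131 bp wide, had its summit nearer to an end of Vha100-2 but lay wholly within the span of Vti1b. At the other end of Vha100-2 both replicates had weak peaks, of which the stronger had 1.60 and 1.64, so that the own peaks of Vha100-2 were weak in replicate 1.

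The other 3 genes of subunit a had no peak of their own. Vha100-4 (3R from 18386841 to 18389805), known from acid-secreting cells of the midgut, lies 517 bp from Vha100-2. It was reached only by a peak of 100 bp in replicate 1 and 109 bp in replicate 2 with 1.46 and 1.40, whose summits lay 134 and 133 bp from Vha100-2 and 384 and 385 bp from Vha100-4. Vha100-3 (2R from 18908961 to 18911895) lies inside the span of sano, and the nearest peaks were 16794 and 16827 bp away. Vha100-5 (2L from 11738948 to 11744524) had its nearest peaks 2664 and 2702 bp away.

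Subunit c forms most of the ring that carries the protons. Of its 5 genes only Vha16-1 (2R from 6625242 to 6633090) had an own peak, with 3.30 in replicate 1 and 3.08 in replicate 2. The peaks were 2104 and 2058 bp wide and covered the higher-coordinate end, with summits 366 and 408 bp from it. Inside the gene, beyond the window of the rule, stood another pair of peaks with 3.05 and 3.03 and summits 5022 and 5036 bp from the lower-coordinate end. A weak peak of 1.40 at the lower-coordinate end was called in replicate 1 and not in replicate 2. Vha16-1, which is 7849 bp long, was thus open over several kilobases. Vha16-2, Vha16-3, Vha16-4 and Vha16-5 are 595, 682, 567 and 725 bp long, so that this extent cannot be compared with theirs. None of them had an own peak.

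Vha16-5 (2L from 10736319 to 10737043) lies between Nup107 and CG12299, and both of its sides were open. On the side of CG12299 the peak had 3.91 and 3.70, with summits 74 and 141 bp from CG12299 and 376 and 443 bp from Vha16-5. On the side of Nup107 it had 1.97 and 1.85, with summits 46 and 53 bp from Nup107. Neither peak covered an end of Vha16-5. At Vha16-4 (2R from 16947658 to 16948224) a peak of 3056 bp in replicate 1 and 2832 bp in replicate 2, with 2.29 and 2.21, extended over the lower-coordinate end. Its summits were 1836 and 1847 bp away, near CG15614. Vha16-2 and Vha16-3, which lie 985 bp apart on 3L (11474958 to 11475552 and 11473291 to 11473972), were in a region without peaks. The nearest were 8535 and 8547 bp from Vha16-2, and 10115 and 10127 bp from Vha16-3.

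**Figure D3:**
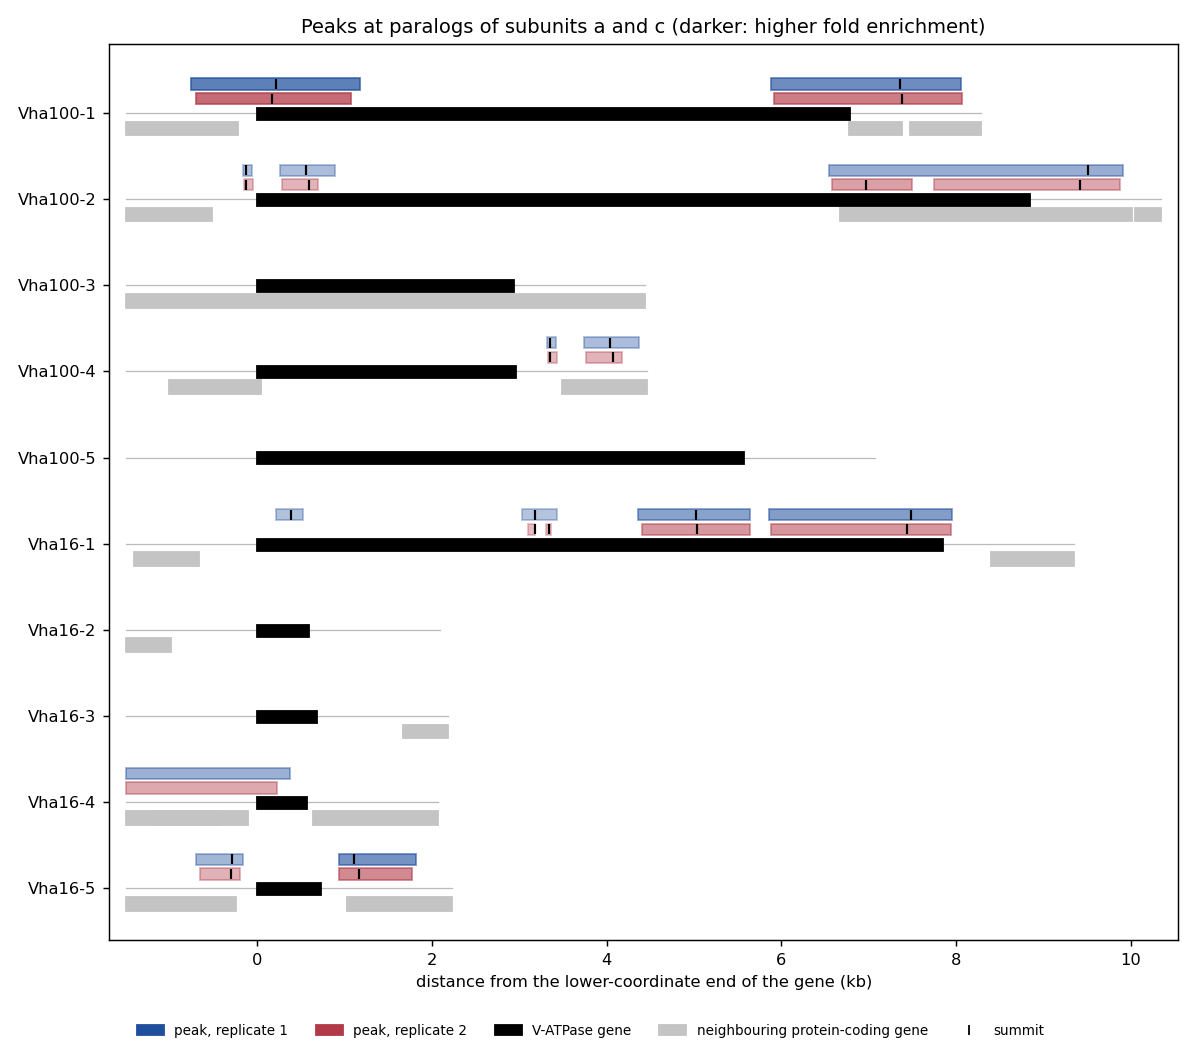
Peaks of replicate 1 (blue) and replicate 2 (red) at the 5 genes of subunit a and the 5 of subunit c, drawn as in the map of subunits A, D, F, c'' and d. Vha100-1 has peaks at both ends and Vha16-1 several over its higher-coordinate part, while Vha100-3, Vha100-5, Vha16-2 and Vha16-3 have none within 1500 bp.

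The subunits c'' and d complete the rotating part of V0, c'' as a member of the ring and d as its link to the central stalk. Each has a pair of genes, and in each pair the copy numbered 1 had the own peak. VhaPPA1-1 (subunit c'', 3R from 14902330 to 14904061) had 6.20 in replicate 1 and 5.86 in replicate 2, with summits 9 and 15 bp from its higher-coordinate end. VhaPPA1-2 (3R from 14899606 to 14900277), 2052 bp away, had no peak within 500 bp. VhaPPA1-2 is the member just outside the window, since its nearest peaks lay 550 bp away in replicate 1 and 740 bp away in replicate 2, with 1.45 and 1.27. Among the open members, the distance to the nearest peak was largest at Vha100-4, with 354 and 362 bp, and at Vha36-2, with 340 and 275 bp.

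VhaAC39-1 (subunit d, X from 3880748 to 3882967) had 6.01 in replicate 1 and 5.25 in replicate 2, with summits 285 and 225 bp from its lower-coordinate end. This was the largest difference between the replicates among own peaks in absolute terms. VhaAC39-2 (3R from 23158017 to 23159316) stood above all other members by the rule, with 7.48 and 7.09, at percentiles 97.9 and 96.7 of all protein-coding genes with a peak. The peak lay wholly outside VhaAC39-2, 133 and 134 bp from it. Its summits were 832 and 804 bp from VhaAC39-2 and 677 and 649 bp from the end of unk, within the span of that gene. The only other peak near VhaAC39-2 had 1.18 and was called in replicate 1 alone. The highest value among the members is thus a peak of the neighbouring gene by the position of its summit.

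The accessory subunit AC45 is a membrane protein that assists assembly and sorting of the pump. VhaAC45 (2R from 9207561 to 9209774) had a peak across its lower-coordinate end with 3.63 in replicate 1 and 3.47 in replicate 2. A stronger peak with 4.76 and 4.70 lay 236 and 309 bp outside the other end, with summits 709 and 703 bp from it. The nearest end of another protein-coding gene was that of Gnptab, 3359 and 3353 bp from those summits. VhaAC45RP (3R from 30164692 to 30166419), a related gene known in flies for the acidification of synaptic vesicles, had 6.04 and 6.09, with summits 24 bp from its higher-coordinate end in both replicates. Among own peaks, VhaPPA1-1 and VhaAC45RP had the highest values in both replicates, and their order differed between the replicates. VhaAC39-1 came next in replicate 1, whereas in replicate 2 it stood below Vha55. Vha68-1, Vha100-1 and Vha44 also changed places between the replicates.

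Over the 15 members with an own peak, the highest fold enrichment of such a peak had a median of 4.76 in replicate 1 and 4.70 in replicate 2. Over the 5919 protein-coding genes with an own peak the medians were 3.59 and 3.50. A total of 10 of the 15 lay above these medians of all genes in both replicates. The medians of the members are the values of VhaAC45, from a peak outside the gene, so that they depend on taking the highest peak. The own peak across the end of VhaAC45 had 3.63 and 3.47. The own peaks were 1725.0 and 1676.0 bp wide at the median, against 1180.0 and 1108.0 bp. The summit lay within 100 bp of the gene end in both replicates at 7 of the 15 (46.7%), against 37.0% of all genes with an own peak. The values overlapped widely with those of other genes, and no test was made of the members as a set.

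**Figure D4:**
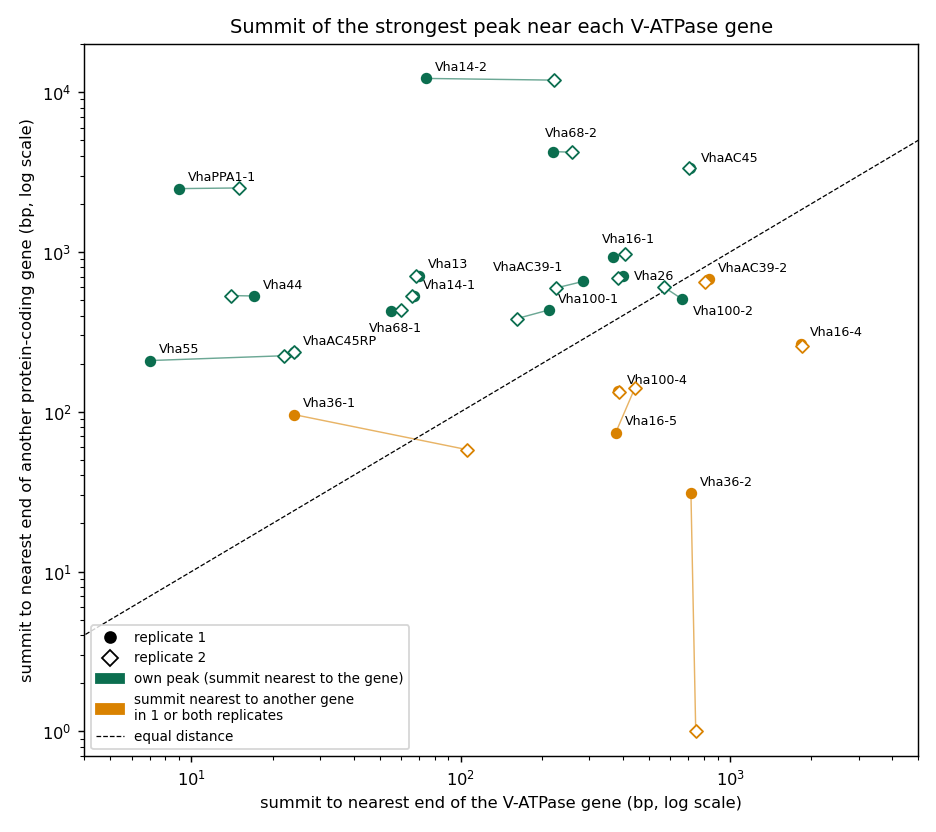
Distance in bp from the summit of the strongest peak near each of the 21 open V-ATPase genes to the nearest end of that gene (x axis) and of another protein-coding gene (y axis), both on log scales, with filled circles for replicate 1 and open diamonds for replicate 2. Points above the dashed line lie nearer to the V-ATPase gene, Vha36-1 crosses the line between replicates, and Vha100-2 crosses it with its strongest peak but also has weaker own peaks in replicate 1.

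At the median, the members without an own peak were shorter genes with fewer transcripts than those with one. The 15 members with an own peak had a median length of 3338.0 bp, and 2 of them have a single RefSeq transcript. The 6 members with a summit at another gene had a median length of 1182.0 bp, and 6 of 6 have a single transcript. The 7 without a peak had a median length of 1470.0 bp, and 4 have a single transcript. Over all protein-coding genes the same 3 classes had median lengths of 3565.0, 2080.0 and 1345.0 bp and a single transcript at 2057 of 5919, 1573 of 3189 and 3263 of 4814 genes. Genes with an own peak were thus the longest class among the members and among all genes, while the order of the other classes differed. In each of the 4 closest pairs of members (Vha68-2 and Vha68-3, Vha100-2 and Vha100-4, Vha16-2 and Vha16-3, and VhaPPA1-1 and VhaPPA1-2) at most 1 gene had an own peak. By definition a summit counts for 1 gene only, and 42.5% of all protein-coding genes had an own peak. Close pairs of other genes were not counted, so that nothing particular to these pairs can be read from this.

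Replicates gave near-equal fold enrichment at the members. The ratio of replicate 1 to replicate 2 had a median of 1.01 and ranged from 0.862 at Vha14-2 to 1.14 at VhaAC39-1. Over the 9108 genes the median was 1.02 and the range 0.207 to 4.50. A range widens with the number of genes, so that these ranges cannot be compared directly. The peak was wider in replicate 1 at 15 of 21 members, against 7451 of all 9108 genes. Its -log10 q was higher in replicate 1 at 20 of 21, the exception being Vha14-2. Over all 9108 genes, -log10 q was likewise higher in replicate 1 at 9050. By the study's methods the libraries kept unequal numbers of reads, and the part of this in width and -log10 q was not tested.

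**Figure D5:**
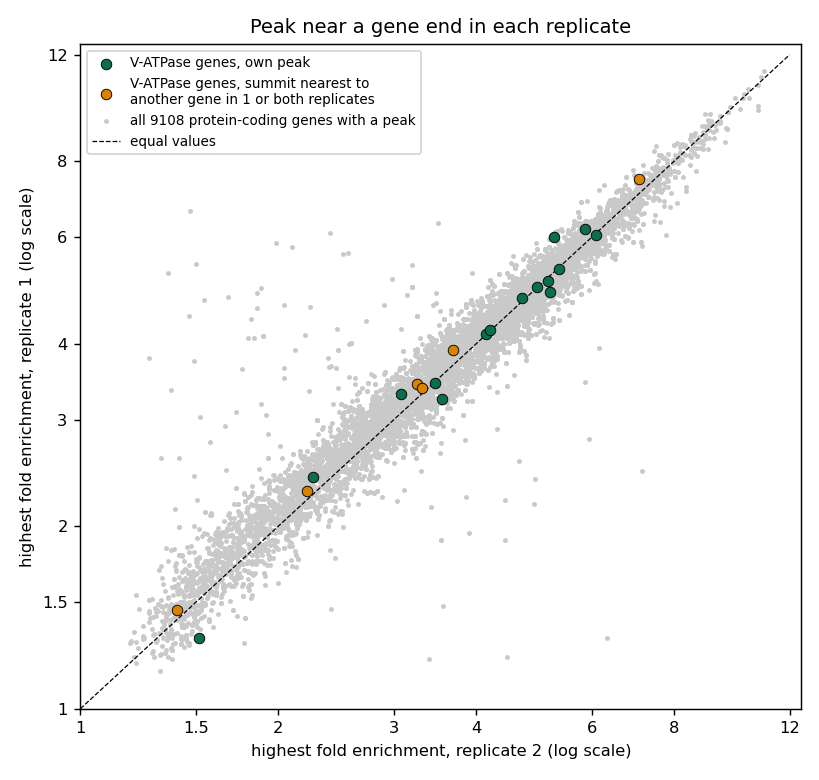
Highest fold enrichment within 500 bp of a gene end in replicate 1 (y axis) and replicate 2 (x axis), both on log scales, for the V-ATPase genes (green for own peaks, orange for summits nearest to another gene in 1 or both replicates) and for all 9108 protein-coding genes with a peak (grey). The 21 V-ATPase genes lie close to the line of equal values, with ratios from 0.862 to 1.14.

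V-ATPase genes outside the rule and genes that work with the pump were described in the same way. Of 6 further V-ATPase genes, 5 had an own peak, against 42.5% of all protein-coding genes. VhaSFD, the gene of subunit H, which regulates the pump in V1, had 4.54 in replicate 1 and 4.56 in replicate 2. ATP6AP2, an accessory subunit also listed as VhaM8.9, had 4.08 and 3.78. Among the 4 genes of the small membrane subunit e, VhaM9.7-b had the highest values, 4.08 and 3.97, and VhaM9.7-d had no peak, the nearest being 2224 and 2233 bp from its ends. At VhaM9.7-c the peak (3.19 and 3.33) lay 303 and 308 bp outside the gene, and VhaM9.7-a had 2.34 and 2.13. Subunit e thus also had open copies beside 1 without a peak.

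Own peaks stood at each of 4 genes that regulate the pump. These were Rbcn-3A (3.73 and 3.47) and Rbcn-3B (4.20 and 4.07), which encode the complex that assembles it, mtd (3.27 and 3.10), and Mitf (2.47 and 2.78), a transcription factor known in flies to activate V-ATPase genes. Of 15 lysosome genes that matched the table out of 16 listed, 13 had a peak in both replicates and 10 an own peak, against 65.4% and 42.5% of all protein-coding genes. The highest values were those of Lamp1, a lysosomal membrane glycoprotein, with 9.14 and 9.04. Trpml, a lysosomal cation channel, and Gba1b, a glucocerebrosidase, had no peak within 500 bp. The listed gene without a match was Tor. The gene table holds the symbol mTor, which was not counted here and was open by the rule, with 5.07 and 5.14 in the peak at Vha68-1.

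Proteasome subunit genes, which also have additional copies known from testis, were set beside the V-ATPase genes. A peak near a gene end in both replicates was found at 21 of 28 V-ATPase genes (75.0%) and at 32 of 48 proteasome genes (66.7%), and an own peak at 53.6% and 43.8%. A peak covered a gene end at 60.7% of the V-ATPase genes and at 60.4% of the proteasome genes. Both ends were open at 39.3% of the V-ATPase genes, fewer than the 43.8% of the proteasome genes. The median fold enrichment of genes with a peak was 4.16 and 4.14 for the V-ATPase genes, against 3.33 and 3.40 for the proteasome genes. The difference between these families was not tested.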

How the data were processed

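ATAC-seq had been performed on MB nuclei in 2 biological replicates. For alignment to genome release 6 the authors used Bowtie2 (2.4.1) on reads trimmed by Trimmomatic (0.39), with a fragment limit of 2000 bp. Tn5 offsets of 4 and -5 bp were applied, and multi-locus, mitochondrial, scaffold and duplicate reads were removed. Peaks came from MACS2 (2.1.2), run per replicate at a q of 0.01 with a length of at least 50 bp and gaps up to 100 bp. The deposited values are a fold enrichment (a ratio), -log10 p and -log10 q, and a score derived from -log10 q. Fold enrichment was used, and -log10 q only as a filter and description. Local background sets the fold, and reads lost at near-identical copies would lower it.

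Peaks were counted when within 500 bp of a gene start or end. Where a gene had several, the highest fold was taken. Gene spans came from RefSeq release 6, without strand, exons or sequence, so that promoters, exons and UTRs were not analysed here. All members are named. Other V-ATPase, regulator, lysosome and marker genes came from fixed lists. Members and lists were chosen with earlier results of these data known. No test was run, since there is 1 condition. Assignment was tested on simulated peaks beside isolated genes only, which does not cover peaks shared by close genes. Python (version 3.11.15), numpy (version 2.4.6) and pandas (version 2.3.3) were used. Alternatives were other windows, a -log10 q minimum, a reciprocal overlap, summits nearest to the gene, whole gene spans and each replicate alone.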

Additional observations from a re-analysis of the deposited data

How the results depend on the processing

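The count of 21 open members ranged from 15 with summits nearest to the gene to 22 with a window of 1000 bp, which added VhaPPA1-2, and was 21 without either replicate. Peaks that cover the gene end left 17 members (without Vha100-4, Vha16-5, Vha36-2 and VhaAC39-2), and the -log10 q minimum of 10 left 19 (without Vha100-4 and Vha14-2). All 12 subunit groups kept an open gene, except for 11 with summits nearest to the gene. The median fold enrichment, as the mean of both replicates, was 4.15. It was 3.98 with 1000 bp, 4.21 at that q minimum, and 4.73 with summits nearest to the gene. Among the ends of all annotated genes, a choice made after seeing the data, it was also 4.73. The median width of 1696.0 bp became 1848.0 bp for peaks that cover the end and 1795.0 bp at the q minimum. The share of all protein-coding genes, 65.4%, became 54.4% for peaks that cover the end, 70.3% with 1000 bp, 62.4% at the q minimum, 63.5% with a reciprocal overlap of 50%, 42.5% with summits nearest to the gene (40.9% among all annotated genes) and 67.5% with whole gene spans. It ranged from 65.6% to 68.0% with 1 replicate left out. Taking the peak with the summit nearest to a gene end moved the fold of 4 of 21 members, VhaAC39-2, VhaAC45, Vha100-2 and Vha16-5. Merging the replicates' peaks moved the width of 6.

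The alternative of gene starts only was not run, because the gene table gives no strand. No paired analysis was possible because the series holds a single condition. The lists give no depth per peak, so that the precision of weak peaks such as that of Vha14-2 is unknown. The study's methods do give the total of reads left in each library, and these totals were unequal.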
